A study of Mus musculus with 12 samples.

Results

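The epidermal kallikreins and their inhibitor Spink5 were followed across intact and sutured mouse corneas. The list holds 9 genes, Klk5, Klk6, Klk7, Klk8, Klk10, Klk11, Klk13, Klk14 and Spink5. They were drawn up as a gene family, and each was to be read by the probe set selected on its mean intensity over the 12 arrays. Of the 9 genes, 8 had exactly 1 probe set that the platform table ties to that gene alone, so no choice between probe sets arose. Klk14 was not analysed here. These 8 are among 18194 genes measured by such a probe set. Fitted comparisons used 12706 genes whose mean log2 signal reached the 40th percentile over probe sets, of which 7 are in the list, since Klk5 was dimmer. Klk6 and Klk7 cleared that limit only through the corneas lacking Dscr1 and would miss it on the other 8 arrays, so a count over the 7 is no independent support for a rise.

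Kallikreins are secreted serine proteases that are made as inactive precursors and activate each other in a cascade. In epidermis they are released by granular cells and cut corneodesmosin, desmocollin 1 and desmoglein 1, the adhesion proteins that hold dead cells together, so that cells are shed from the surface. Spink5 encodes LEKTI, a precursor of several inhibitory domains that hold KLK5, KLK7 and KLK14 in check, and its loss causes Netherton syndrome, a disease of excessive skin shedding. The healthy cornea carries a wet, non-cornified epithelium that sheds cells without forming a horny layer.

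RNA from whole corneas of C57BL/6J mice was hybridised to Affymetrix arrays, 1 array per sample and 12 arrays in all. The 8 intact samples comprised 4 groups of 2, which the labels call biological replicates: wild type (WT), Apoe null (ApoeKO, ApoE-/-), Dscr1 null (Dscr1KO, Dscr-1-/-) and null for both (double KO). The 4 sutured samples were single corneal arrays of WT at day 5, WT at day 7, Dscr1 transgenic (Dscr1TG, Dscr-1 Tg) at day 7 and Dscr1KO at day 5. Dscr1, now named Rcan1, encodes a calcineurin regulator, and Apoe encodes a cholesterol-carrying apolipoprotein. The sources used here give neither the promoter of the transgene, nor the deleted parts of either gene, nor sex or age. Intensities are the authors' probe-set signals, with array medians between 15.6 and 21.1, so readings below about that level are dim. Differences are on the scale log2(intensity + 3.6), which understates changes of dim genes. They carry standard errors (SE) and adjusted p-values from limma with Benjamini-Hochberg adjustment over all genes tested, and a gene is said to rise or fall where the adjusted p is under 0.05. With 2 arrays per group, these p-values measure only the spread between these samples.

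Some libraries went against their labels. Apoe read 849.3 in the library labelled ApoeKO replicate 1, against 7.5 in ApoeKO replicate 2 and 776.5 and 1030.5 in WT. The library labelled Dscr1KO replicate 2 is named ApoE-/- in its source label and Dscr-1-/- in its title and genotype, and read 316.8 for Apoe. Its Rcan1 signal of 335.9 lay with 331.7 and 379.6 in double KO and 477.5 in Dscr1KO replicate 1, below 581.3 to 668.2 in the 4 intact samples with Dscr1. The position of the Rcan1 probe set relative to the deletion is unknown here, so these readings do not check the Dscr1 labels. Groups were kept as labelled. The female-specific RNA Xist was high in 5 intact libraries (ApoeKO and Dscr1KO pairs, double KO replicate 1) and read 19.6 or less in the other 7. Over the intact groups, sex and genotype are thus partly confounded. In Dscr1KO minus WT and in ApoeKO minus WT they are fully confounded, since Xist was low on both WT arrays.

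The kallikrein members lie in a cluster on chromosome 7, with Klk12 and Klk9, which are not in the list, among them. RefSeq promoter windows of GRCm38.p6, each of 250 bases before and 50 bases after an annotated start, were at hand for 8 of the 9 genes in 10 windows, all on the plus strand, with Klk6 and Klk11 having 2 each. The 250 bases before the start are shown for Klk13, Klk8 and Klk10, which had 3 of the 4 largest differences between corneas with and without Dscr1. Klk8 and Klk10 also had the most alike profiles of any pair in the list. Capitals mark GGAAA or its reverse complement TTTCC, the core letters bound by NFAT factors, which calcineurin activates, and TTAAAA, an AT-rich stretch that was searched for after the sequences were seen.
Klk13, chr7:43712317-43712566: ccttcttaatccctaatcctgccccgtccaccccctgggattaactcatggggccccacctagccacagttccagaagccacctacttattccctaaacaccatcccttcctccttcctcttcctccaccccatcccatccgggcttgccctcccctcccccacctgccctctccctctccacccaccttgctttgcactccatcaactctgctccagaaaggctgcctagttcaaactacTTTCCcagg
Klk10, chr7:43780804-43781053: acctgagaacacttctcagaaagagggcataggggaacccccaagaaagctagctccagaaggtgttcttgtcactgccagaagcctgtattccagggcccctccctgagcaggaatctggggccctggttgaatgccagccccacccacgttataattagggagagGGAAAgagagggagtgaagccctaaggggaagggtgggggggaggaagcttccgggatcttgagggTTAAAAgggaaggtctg
Klk8, chr7:43797327-43797576: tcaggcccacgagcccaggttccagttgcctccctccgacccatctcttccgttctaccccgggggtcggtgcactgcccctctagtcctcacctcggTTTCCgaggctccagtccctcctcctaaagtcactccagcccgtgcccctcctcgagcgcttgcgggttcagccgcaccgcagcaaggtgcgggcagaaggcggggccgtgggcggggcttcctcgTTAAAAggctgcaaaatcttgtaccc
On both strands, GGAAA occurred in 7 of the 10 kallikrein windows, against 61.3% of all 32851 windows. Its first base lay 9 bases before the start in Klk13, 83 in Klk10 and 152 in Klk8. TTAAAA occurred in 4 of the 10 windows, those of Klk11, Klk10, Klk8 and Klk6, against 19.2% of all windows, and began 17 bases before the start in Klk10 and 26 in Klk8. No kallikrein window held TATAAA, the TATA box letters, which 13.6% of all windows hold. Nor did any hold TGANTCA, the letters bound by AP-1 (7.81% of all windows), or AACCNGTT, those bound by grainyhead-like factors (2.09%). These matches are descriptions of letters in a short window.

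Signals of most kallikreins were low in intact corneas with Dscr1 and far higher in intact corneas without it. Averaged over both Apoe states, 6 of the 7 genes fitted rose on loss of Dscr1 (4 arrays against 4), namely Klk13, Klk8, Klk7, Klk10, Spink5 and Klk11, by 1.77 to 8.36 on the log2 scale. Klk6 had a difference of 1.71 with an adjusted p of 0.0729, and Klk5 was too dim for the fit. Among all genes tested, 16.3% rose in this comparison. In 6 of the 8 genes measured, all but Klk5 and Klk6, every one of the 4 null arrays lay above the 4 intact arrays with Dscr1, a pattern seen in 16.8% of all genes tested. The same 6 genes lay above all other 8 arrays, sutured corneas included, as did 6.71% of all genes tested. In bulk tissue, more cells making a transcript and more RNA per cell cannot be told apart.

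**Figure D1:**
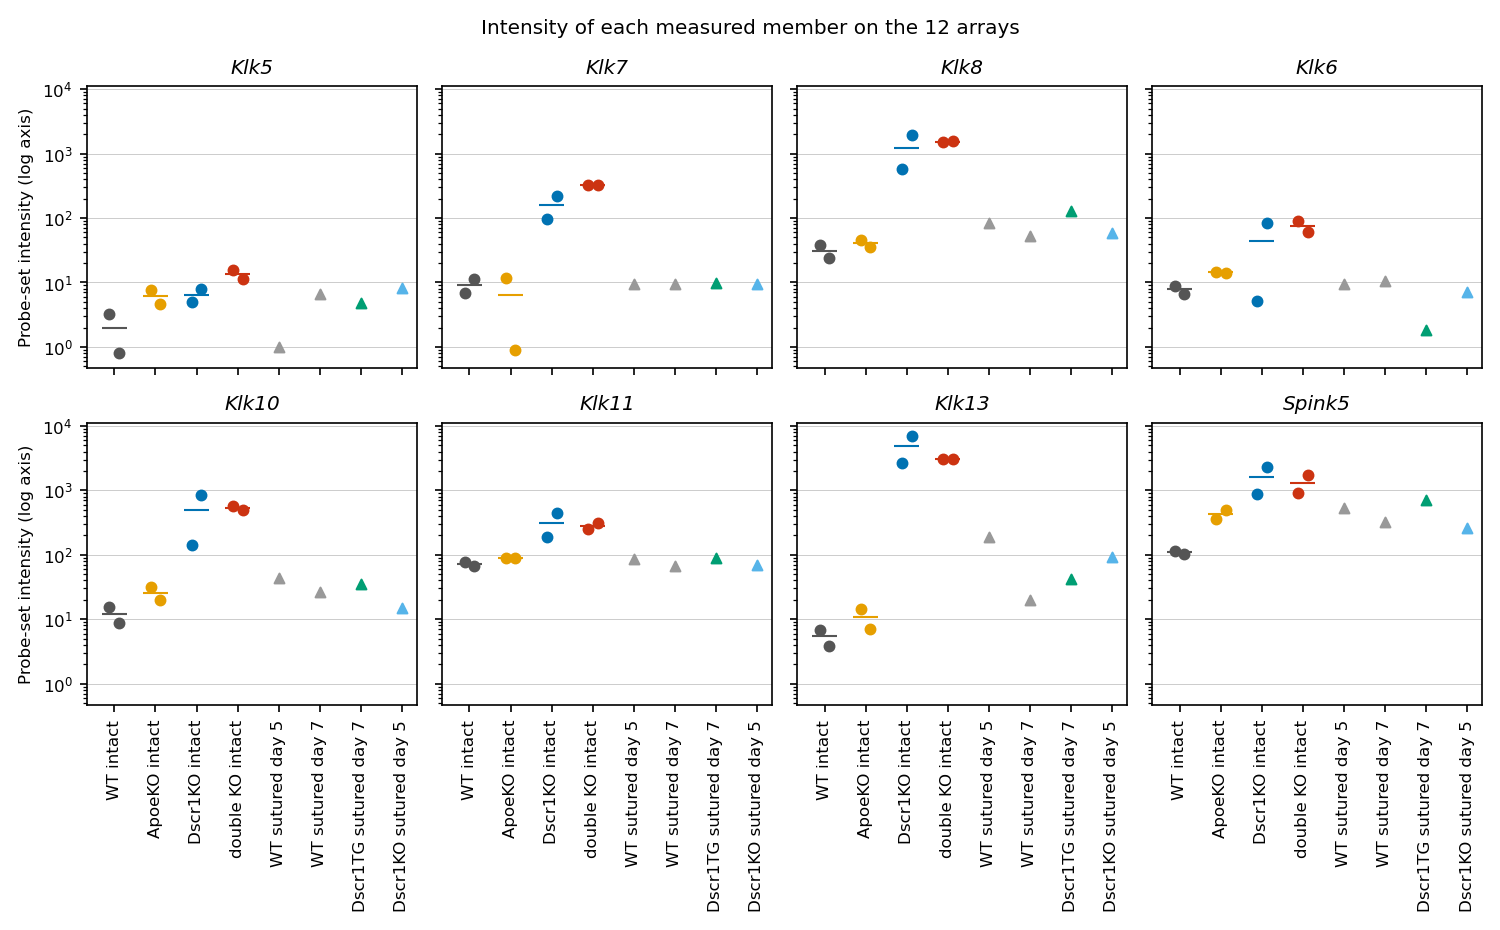
Probe-set intensity (vertical axis, log scale, authors' scaled units) of each of the 8 genes measured on the 12 arrays, with intact arrays as circles, sutured arrays as triangles and horizontal lines at the mean of 2 arrays. The 4 Dscr1-null intact arrays stand above all others for Klk7, Klk8, Klk10, Klk11, Klk13 and Spink5, and Dscr1KO replicate 1, the left blue circle, is the lowest of the 4 in every panel.

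Klk5, the trypsin-like protease placed at the head of the epidermal cascade, stayed dim throughout. WT read 3.2 and 0.8, ApoeKO 7.6 and 4.6, Dscr1KO 4.9 and 8.0, and double KO 15.4 and 11.5. Only the double KO arrays lay above all arrays of the other intact groups, and all 4 groups read below the array medians. Fitted without the limit on dim genes, the Dscr1 difference was 0.84 ± 0.28 (SE, adjusted p = 0.07), and double KO minus WT was 1.63 ± 0.40 (adjusted p = 0.0326). The sutured arrays lay between 1.0 and 8.1.

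Klk7, the chymotrypsin-like protease that cuts corneodesmosin and is activated by KLK5, rose from near background. Its readings were 6.8 and 11.3 in WT and 11.7 and 0.9 in ApoeKO, against 97.9 and 215.8 in the Dscr1KO pair and 324.1 and 324.5 in the double KO pair. The groups with and without Dscr1 did not overlap, and the lowest null array was 8.37 times the highest of the other 8 arrays. The Dscr1 difference was 4.44 ± 0.41 (SE, adjusted p = 0.000349). All 4 sutured arrays lay between 9.3 and 9.9, within the range of intact corneas with Dscr1.

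Klk8, also called neuropsin, a trypsin-like protease of the upper epidermis, read 38.5 and 24.0 in WT and 46.1 and 35.9 in ApoeKO. Dscr1KO arrays read 568.2 and 1910.9, and double KO arrays 1500.1 and 1540.6. The null arrays did not overlap any other array, and the double KO pair lay close together while the Dscr1KO pair differed 3.36-fold. Klk8 rose by 5.02 ± 0.35 (SE, adjusted p = 0.00011).

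Klk6, or neurosin, a trypsin-like protease best known from brain, was the exception among the genes fitted. WT arrays read 8.9 and 6.7 and ApoeKO arrays 14.6 and 14.0, against 5.2 and 82.8 in the Dscr1KO pair and 91.2 and 61.2 in the double KO pair. Dscr1KO replicate 1 lay below every intact array with Dscr1 while the other 3 null arrays lay above them, so the groups overlapped. The difference of 1.71 ± 0.63 (SE) became 2.53 (adjusted p = 0.000281) without Dscr1KO replicate 1 and 0.88 (adjusted p = 0.038) without the library labelled Dscr1KO replicate 2. Without the latter, Dscr1KO minus WT turned from 1.28 to -0.37, with no call either way.

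Klk13, a trypsin-like kallikrein of stratified epithelia, had the largest difference of the list. WT arrays read 6.9 and 3.9 and ApoeKO arrays 14.6 and 7.0, against 2662.3 and 7064.7 in the Dscr1KO pair and 3021.6 and 3074.6 in the double KO pair. On null arrays it was brighter than 99.0% to 99.7% of all probe sets, and in WT it was brighter than 21.4% and 32.6%. The lowest null array was 14.26 times the highest of the other 8. Klk13 rose by 8.36 ± 0.32 (SE, adjusted p = 6.53e-06). Its signals in intact corneas with Dscr1 lay below the array medians, so the size of this difference depends on the constant of 3.6 added to each intensity.

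Klk10, a kallikrein of many epithelia, read 15.4 and 8.8 in WT and 31.5 and 20 in ApoeKO. The Dscr1KO arrays read 143.3 and 842.8 and the double KO arrays 570.7 and 497.3. No null array overlapped the others, and Dscr1KO replicate 1 lay 5.88-fold below replicate 2. Klk10 rose by 4.37 ± 0.49 (SE, adjusted p = 0.000768). Its WT signals lay below the array medians, so the size of this difference depends on the added constant. It was 4.55 with a constant of 1.2 and 4.19 with 6.4.

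Klk11, which encodes a trypsin-like protease of upper epidermis, was well above the array medians in every group. WT arrays read 78.6 and 66.7 and ApoeKO arrays 90.7 and 87.9, against 187.2 and 437.2 in the Dscr1KO pair and 248.0 and 312.8 in the double KO pair. The null arrays stood above all others, the lowest at 2.06 times the highest of the other 8. The rise of 1.77 ± 0.25 (SE, adjusted p = 0.00204) was the smallest of those past the threshold.

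Spink5, the inhibitor, rose alongside the proteases. Its levels were 115.9 and 102.8 in WT and 353.9 and 496.3 in ApoeKO, then 884.8 and 2315.5 in the Dscr1KO pair and 924.5 and 1714.6 in the double KO pair. The order of group means was Dscr1KO, double KO, ApoeKO and WT, and the first 2 overlapped while the others did not. On average over both Apoe states Spink5 rose by 2.62 ± 0.32 (SE, adjusted p = 0.00106). The rise was 3.67 ± 0.46 (adjusted p = 0.00347) between Dscr1KO and WT and 1.58 ± 0.46 (adjusted p = 0.0464) between double KO and ApoeKO. The interaction that tests this difference was -2.09 ± 0.64 with an adjusted p of 0.578, so it did not pass over all genes.

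The library labelled Dscr1KO replicate 1 was the lowest of the 4 null arrays in all 8 genes, and replicate 2 was the highest in 5. Klk12 and Klk9, which lie between genes of the list, were also lowest in replicate 1, Klk12 at 82.0 against 566.6 to 949.1 on the other null arrays and Klk9 at 27.8 against 98.0 to 206.6. Without ApoeKO replicate 1 and Dscr1KO replicate 2, the libraries of doubtful Apoe level, 6 of the 7 genes still rose on average, against 12.1% of all genes tested. Leaving out any single array kept the 6 calls, with Klk6 added without either Dscr1KO array, while the genes called over the whole table numbered 2168 to 5683. Among the 5 intact arrays with Xist, 3 of them Dscr1 null and 2 ApoeKO, 4 of the 7 genes rose, against 4.64% of all genes tested. Klk11 at 1.57 (adjusted p = 0.0574) and Spink5 at 1.55 (adjusted p = 0.094) did not pass there. The reference of that fit is ApoeKO alone, while its null arrays are the Dscr1KO pair and double KO replicate 1. Apoe and Dscr1 labels are thus partly mixed in it. Double KO replicate 2, the null array without Xist, read 3074.6 for Klk13 and 1540.6 for Klk8.

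The same 6 genes rose in each fitted pairwise comparison of a group without Dscr1 against one with it. Dscr1KO minus ApoeKO was not fitted. In Dscr1KO minus WT the 6 rose, against 7.86% of all genes tested, with Klk13 highest at 8.93 ± 0.45 (SE, adjusted p = 6.69e-05) and Klk11 lowest at 1.93 ± 0.36 (adjusted p = 0.0147). In double KO minus WT the 6 rose, against 11.4% of all genes. Klk13 was again highest at 8.43 ± 0.45 (adjusted p = 7.18e-05), and Klk6 at 2.79 ± 0.89 narrowly missed (adjusted p = 0.0626). In double KO minus ApoeKO the 6 rose, against 11% of all genes, with Klk13 at 7.78, Klk7 at 5.30 and Klk8 at 5.10. Dscr1KO minus WT and double KO minus WT share the WT arrays, and both comparisons of double KO share its arrays, so they are not independent of each other. Xist was low on both WT arrays and high on both Dscr1KO arrays, so sex and Dscr1 loss cannot be told apart in Dscr1KO minus WT.

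The number of calls in these pairs changed when single arrays were left out, and the share of all genes that rose changed with it. For Dscr1KO minus WT, 3 genes passed without WT replicate 2 (Klk13, Klk8 and Spink5), where 1.9% of all genes rose. The genes lost there kept differences near those of all arrays, Klk7 at 3.84 against 3.58, Klk10 at 4.21 against 4.52 and Klk11 at 1.82 against 1.93. Without WT replicate 1, 4 genes passed and 2.53% of all genes rose, and without Dscr1KO replicate 1 all 7 passed and 14.2% of all genes rose. For double KO minus WT, Klk11 did not pass without WT replicate 1 (adjusted p = 0.0549), where 5.67% of all genes rose, or without WT replicate 2 (adjusted p = 0.0848), where 4.42% did. For double KO minus ApoeKO, 3 genes passed without ApoeKO replicate 2 (Klk13, Klk8 and Klk7), where 3.31% of all genes rose. In that comparison 4 genes passed without ApoeKO replicate 1, double KO replicate 1 or double KO replicate 2, where 5.07%, 7.11% and 9.7% of all genes rose. Spink5 and Klk11 were lost in each of these 4 fits.

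In the fit of all intact groups, the comparisons for Apoe loss called none of the genes. Apoe read 849.3 on ApoeKO replicate 1, within the WT range, and 316.8 on Dscr1KO replicate 2. The Apoe state of these libraries is thus in doubt, which limits what these comparisons can show. In ApoeKO minus WT, 0 of the 7 genes passed, and 0.0236% of all genes tested changed in either direction. Spink5 came closest, at 1.91 ± 0.46 (SE), with an unadjusted p of 0.00321 in limma and an adjusted p of 0.601, and both ApoeKO arrays lay above both WT arrays. This was the only one of the 7 with an unadjusted p under 0.05. With only the groups compared in the limma fit, Spink5 passed (adjusted p = 0.00159). Xist was low on both WT arrays and high on both ApoeKO arrays, so sex and Apoe loss cannot be told apart in ApoeKO minus WT. In double KO minus Dscr1KO, 0 of 7 passed, with none at an unadjusted p under 0.05, and 0.0236% of all genes changed. Klk7 showed the lowest adjusted p at 0.534, with a difference of 1.14 ± 0.58. Klk6 passed there (3.15, adjusted p = 0.0263) once Dscr1KO replicate 2 was left out. The Dscr1 by Apoe interaction passed for 0 of 7 genes, with Spink5 alone at an unadjusted p under 0.05, and for 0.00787% of all genes.

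**Figure D2:**
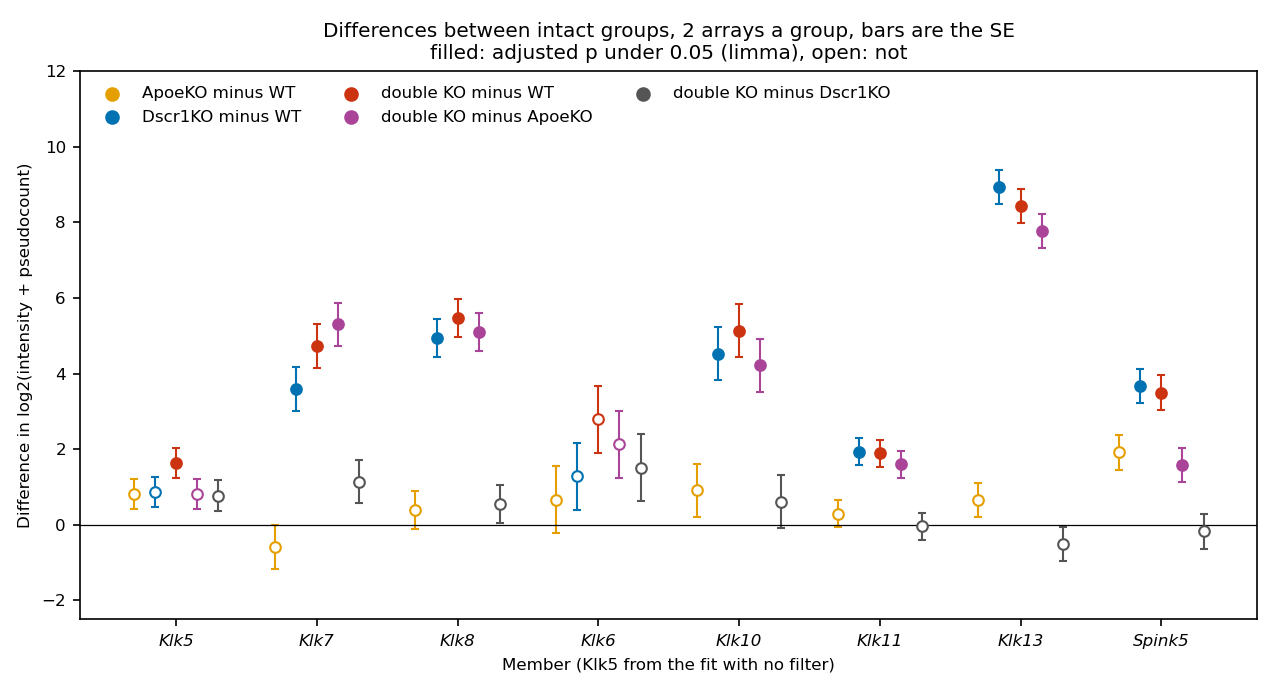
Difference in log2(intensity + 3.6) for each gene (horizontal axis) in 5 comparisons of intact groups of 2 arrays, with bars for the SE, filled points for an adjusted p under 0.05 in limma and open points for the rest; Klk5 is from the fit without the limit on dim genes. The 3 comparisons of a group without Dscr1 against one with it lie high for 6 genes, from 1.58 for Spink5 to 8.93 for Klk13, while points for Apoe loss are open throughout.

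The rise was not even along the gene cluster. In RefSeq order the gene Ctu1 flanks the cluster on one side, followed by Klk14, Klk13, Klk12, Klk11, Klk10, Klk9, Klk8, Klk7, Klk6, Klk5, Klk4 and Klk15, and then by the Klk1 group. Klk12, which is not in the list, rose by 4.73 ± 0.64 (SE, adjusted p = 0.00158), and Klk9 by 3.10 ± 0.47 (adjusted p = 0.00264). Klk11 thus had a smaller difference, 1.77, than both of its neighbours Klk12 and Klk10. Ctu1, which modifies transfer RNA, had a difference of -0.35 ± 0.19 (adjusted p = 0.193). At the other end Klk4, an enamel protease, read at most 8.0 on any array, and Klk1, the tissue kallikrein of glands, had a difference of 0.64 ± 0.24 (adjusted p = 0.0787). Of the 5 other kallikreins listed for comparison, Klk1, Klk4, Klk9, Klk12 and Klk15, 3 were tested and 2 rose, against 16.3% of all genes. Klk9 passed the limit on dim genes only through the corneas lacking Dscr1, so this count is a description. Neighbouring kallikreins resemble each other in sequence, and cross-hybridisation between their probe sets was not tested.

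**Figure D3:**
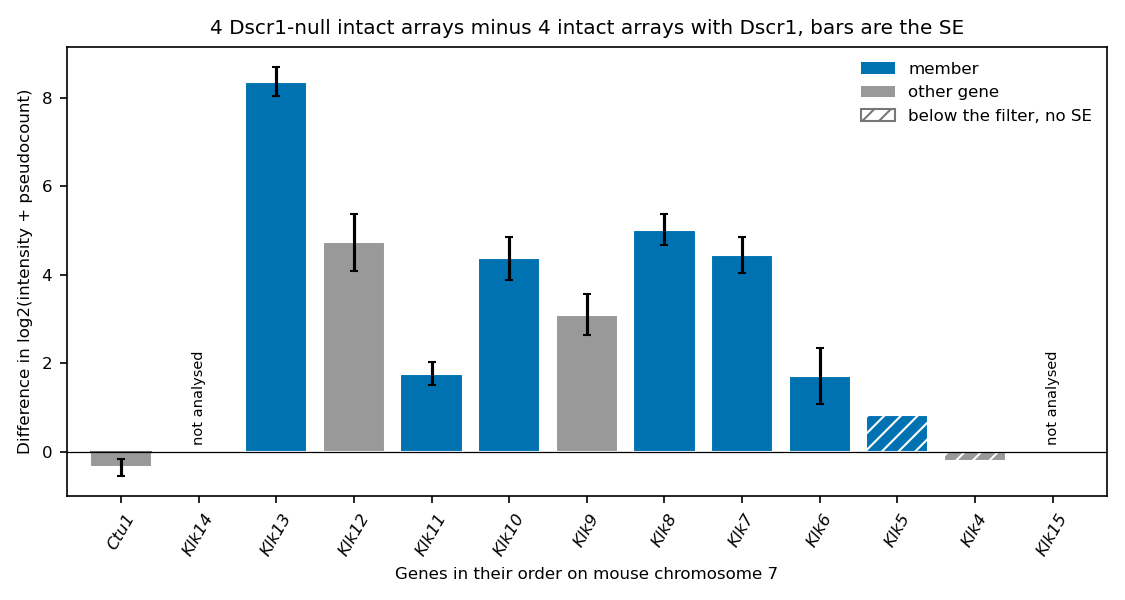
Difference in log2(intensity + 3.6) between the 4 Dscr1-null intact arrays and the 4 intact arrays with Dscr1 (vertical axis) for genes in their order along chromosome 7 (horizontal axis, not to scale), in blue for genes of the list and grey for others, with bars for the SE and hatching for genes too dim to be tested. The difference reaches 8.36 at Klk13, is 1.77 at Klk11 between taller bars, and falls from 5.02 at Klk8 to 0.84 at Klk5.

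On sutured arrays, Klk7, Klk8, Klk10, Klk11, Klk13 and Spink5 stayed below all 4 intact arrays without Dscr1, while the dim Klk5 and Klk6 overlapped with them. In WT, Klk13 read 186.7 at day 5 and 19.7 at day 7, against 6.9 and 3.9 when intact, and was still far below the lowest intact null array at 2662.3. Spink5 read 523.0 and 326.8 in sutured WT, against 115.9 and 102.8 when intact. Klk8 read 82.2 and 53.1, and Klk10 read 44.3 and 26.2. In 5 of the 8 genes, namely Klk6, Klk8, Klk10, Klk13 and Spink5, both sutured WT arrays lay above both intact WT arrays, though for Klk6 the gap was from 8.9 to 9.4. This pattern was seen in 24.2% of all genes tested. Klk5, Klk7 and Klk11 overlapped with intact WT, Klk5 at 1.0 and 6.7 against 3.2 and 0.8.

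The sutured Dscr1KO cornea did not show the high levels of the intact Dscr1KO corneas. At day 5 after suturing it read 91.6 for Klk13, 57.9 for Klk8, 14.8 for Klk10, 9.5 for Klk7, 69.4 for Klk11 and 256.5 for Spink5. In each of these 6 genes it lay below both intact Dscr1KO arrays, as did 36.5% of all genes tested. The lower intact array was 29.06 times its level for Klk13, 9.81 times for Klk8 and 2.70 times for Klk11. It read 7.1 for Klk6, between the intact pair of 5.2 and 82.8. The dim Klk5 went the other way, at 8.1 against 4.9 and 8.0, and 34.7% of all genes tested lay above both intact arrays. The Rcan1 signal of this array was 479.1, close to 477.5 in the intact library labelled Dscr1KO replicate 1. Xist was low on this array (6.0) and high on both intact Dscr1KO arrays, so suturing and sex cannot be told apart in this contrast.

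Fitted over 7 arrays with genotype as a term, sutured minus intact called 0 of the 7 genes and 0% of all genes tested. Of all genes tested, 1251 had an unadjusted p under 0.05 in limma. That model takes a common change for both genotypes. All 7 genes had positive differences in WT (Klk7 0.06 to Klk13 2.91) and negative ones in the single sutured Dscr1KO array (Klk6 -1.37 to Klk13 -5.51). Such opposite changes offset each other and widen the error, so the fit cannot show an absence of change. In the 4 WT arrays alone, Spink5 rose by 1.89 (adjusted p = 0.0145), the only one of the 7 to pass, against 4.68% of all genes that changed either way. That fit takes the day 5 and day 7 arrays as replicates of suturing, so its error includes any change between the days. The product of suturing and genotype, which tests whether the difference depends on Dscr1, called 0 of 7, against 0.606% of all genes. Of the 7, 6 had an unadjusted p under 0.05 in limma, with Klk13 at -8.42 ± 1.49 (SE, adjusted p = 0.0864), Klk8 at -5.12 ± 0.89 (adjusted p = 0.0789) and Spink5 at -4.35 ± 0.71 (adjusted p = 0.071). The sutured Dscr1KO side is 1 array from day 5, assumed to vary like the others and set against WT at both days, so day and genotype are partly mixed. Among the arrays of this fit, Xist was high only on both intact Dscr1KO arrays, so the product cannot be told apart from a difference in sex. Without Dscr1KO replicate 1 all 7 passed, as did 17.1% of all genes. Without Dscr1KO replicate 2, 3 passed (Spink5, Klk8 and Klk10), against 2.27% of all genes. With day 5 alone, that is without the WT day 7 array, 1 passed, Klk13, against 0.228% of all genes.

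Single sutured arrays were set side by side with no test. At day 5, Dscr1KO minus WT was -1.38 for Klk10, -1.02 for Spink5 and -1.0 for Klk13, and 1.35 for the dim Klk5. Among the 8 genes, 2 lay over 2-fold lower and 1 over 2-fold higher, where 6.09% of all genes tested differed over 2-fold either way. At day 7, Dscr1TG minus WT was 1.24 for Klk8, 1.09 for Spink5, 0.98 for Klk13 and -1.38 for the dim Klk6. Here 2 of the 8 genes lay over 2-fold higher and 1 lower, against 4.26% of all genes either way. Klk8, Klk10, Klk11, Klk13 and Spink5 thus read lower in the Dscr1KO cornea than in WT at day 5 and higher in the transgenic cornea than in WT at day 7, in arrays with no replicate. For Klk11 these differences were only -0.32 and 0.38. Klk6 was lower in both (-0.28 and -1.38), Klk7 hardly differed (0.0 and 0.07) and Klk5 went the opposite way (1.35 and -0.29). The genes are grouped here after their values were seen, and the share of all genes with this pattern was not counted. From day 5 to day 7 in WT, Klk13 differed by -3.03 and Klk5 by 1.16, the 2 genes past 2-fold, against 5.3% of all genes. The other 6 genes differed by 0.68 or less either way.

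Genes around the cascade moved in different directions. Membrane-anchored proteases that can start it, and their inhibitors, numbered 8, all tested, of which 0 rose and 4 fell on loss of Dscr1, with a median of -0.35 against -0.02 over all genes, of which 15.4% fell. The 4 were Tmprss11e (-1.03 ± 0.18, SE, adjusted p = 0.00425), Tmprss11d (-0.96 ± 0.21, adjusted p = 0.0121), Prss8, the channel-activating protease prostasin (-0.94 ± 0.13, adjusted p = 0.00158), and Spint2, an inhibitor of such proteases (-0.42 ± 0.11, adjusted p = 0.0242). In the single pairs, 1 of the 8 fell in Dscr1KO minus WT (median -0.01, against 3.9% of all genes that fell), 4 in double KO minus WT (median -0.54, against 8.74%) and 4 in double KO minus ApoeKO (median -0.76, against 8.61%). Lists and members were compared with earlier results of these data known, so these counts are descriptions.

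Among 16 desmosome and corneodesmosome genes, the substrates of kallikreins and their partners, 13 were tested, 2 rose and 4 fell, with a median of -0.10. Over all genes 16.3% rose and 15.4% fell, so the share that rose is near that of all genes. Both genes that rose encode proteins of the horny layer. Dsc1, desmocollin 1, rose by 5.02 ± 0.22 (SE, adjusted p = 1.66e-05), and Cdsn, corneodesmosin, rose by 3.17 ± 0.40 (adjusted p = 0.00125). Cdsn read 106.6 in Dscr1KO replicate 1 and 324.0 to 441.4 on the other 3 null arrays, as the kallikreins did, but Dsc1 was lower in Dscr1KO (516.3 and 393.6) than in double KO (1025.2 and 1858.4). Dsg1a, desmoglein 1 alpha, fell by 1.83 ± 0.31 (adjusted p = 0.00404) and Dsc3 by 0.71 ± 0.13 (adjusted p = 0.00481). The other 2 that fell, Evpl and Dsg2, are named here after their values were seen.

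Of 12 other protease inhibitors of epidermis, 6 were tested, 5 rose and 0 fell, with a median of 3.18, where 16.3% of all genes rose. Wfdc21 and Spink12 passed the limit on dim genes only through the corneas lacking Dscr1, and Serpina12 and A2ml1 were too dim to be tested, so the count and median are descriptions of the genes that passed. The largest rises were those of Slpi, the secretory leukocyte protease inhibitor, at 6.15 ± 0.24 (SE, adjusted p = 7.5e-06), Wfdc12 at 4.81 ± 0.38 (adjusted p = 0.000186), Wfdc21 at 3.92 ± 0.25 (adjusted p = 7.35e-05) and Spink12 at 2.45 ± 0.28 (adjusted p = 0.000863). The fifth was Wfdc5 at 1.95 ± 0.40 (adjusted p = 0.0089), named after its value was seen. Slpi read 28.3 to 57.0 in intact corneas with Dscr1, 1587.8 and 2136.0 in the Dscr1KO pair and 5738.3 and 3882.9 in the double KO pair. Spink12 ran the other way between the null groups, at 113.9 and 74.7 in the Dscr1KO pair and 12.8 and 26.6 in the double KO pair.

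Of 9 targets and responders downstream of kallikreins, 6 were tested, 4 rose and 0 fell, with a median of 2.83, where 16.3% of all genes rose. Flg passed the limit on dim genes only through the corneas lacking Dscr1, at 2.5 to 7.7 in intact corneas with Dscr1, so this count too is a description. Flg, which encodes the barrier protein filaggrin, rose by 4.85 ± 0.86 (SE, adjusted p = 0.00483), and the cytokine Il1b by 4.15 ± 0.47 (adjusted p = 0.000803). The matrix protease Mmp9 rose by 3.88 ± 0.22 (adjusted p = 4.24e-05) and the alarmin Tslp by 1.78 ± 0.56 (adjusted p = 0.0457). For Tslp the intact arrays overlapped, at 6.7 to 18.7 with Dscr1, 18.6 and 167.3 in the Dscr1KO pair, and 34.0 and 46.4 in the double KO pair. Its highest value came from Dscr1KO replicate 2, the library with conflicting labels. Flg did not track the kallikreins within the null arrays. It read 9.5 in the library labelled Dscr1KO replicate 2, where Klk13, Klk8 and Klk10 were highest, against 318.0, 1046.5 and 574.1 on the other null arrays. Il1b and Mmp9 were also high on sutured arrays, at 187.4 to 451.8 and 35.2 to 281.1, where Klk7 was not. Other genes of the list, namely Klk6, Klk8, Klk10, Klk13 and Spink5, did lie above intact WT on both sutured WT arrays.

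Markers of several other cell types differed between corneas with and without Dscr1, while the summed level of corneal epithelial markers overlapped. The summed intensity of 8 corneal epithelium markers ranged from 34512.1 to 47849.3 in intact corneas with Dscr1 and from 33262.7 to 49237.6 without it. Of the 8, 1 marker, the basal keratin Krt14, lay above on all null arrays, against 16.8% of all genes tested. Krt14 rose by 2.11 ± 0.26 (SE, adjusted p = 0.00105), Pax6, the eye master transcription factor, fell by 1.18 ± 0.27 (adjusted p = 0.0135), and Upk1b fell by 0.99 ± 0.23 (adjusted p = 0.0149), while the other 5 did not pass. The defining corneal keratin Krt12 read 5291.1 to 10080.3 across the 12 arrays. The sum of 8 cornified epidermis markers, which include Flg, was 202.2 to 278.7 with Dscr1 and 16172.2 to 25339.4 without it, and 202.1 to 249.5 on sutured arrays. Of these markers 7 lay above on every null array, against 16.8% of all genes tested, and the epidermal keratin Krt2 stayed under 10 throughout. Only 3 of the 7 would pass the limit on dim genes on the other 8 arrays, so this count is a description. The sum of 7 conjunctiva and goblet cell markers was 2027.4 to 3330.6 with Dscr1, 15403.0 to 20883.4 without it and 6068.5 to 11073.7 on sutured arrays. Of the 7, 5 lay above on every null array, among them Krt4 and the goblet cell mucin Muc5ac, against 16.8% of all genes tested. Muc5ac passed the limit on dim genes only through the corneas lacking Dscr1. Sums of 5 corneal stroma markers overlapped, at 11543.0 to 17757.3 with Dscr1 and 11479.1 to 14547.1 without it, but Kera, the stromal proteoglycan keratocan, fell by 2.06 ± 0.39 (adjusted p = 0.00634) and Col1a1, a collagen chain, rose by 1.66 ± 0.26 (adjusted p = 0.0029). Lens markers were highest in WT among intact corneas, with sums over 5 genes of 3849.0 and 2763.2. The ApoeKO sums, at 247.0 and 62.6, lay within the 29.5 to 282.4 seen without Dscr1. Of the 5, 4 fell in the Dscr1 average (median -1.71), where 15.4% of all genes fell, led by Crygd, a lens crystallin, at -5.22 ± 0.43 (adjusted p = 0.000216). In double KO minus WT 5 fell, where 8.74% of all genes did. The median was -3.75 in ApoeKO minus WT and -1.35 in double KO minus ApoeKO, so the lens difference lay largely between WT and the other intact groups. The marker genes are named here after their values were seen. Their part in the kallikrein result was not tested. Hair follicle markers had sums over 8 genes of 37.3 to 52.9 with Dscr1 and 37.0 to 68.1 without it. On every null array 2 of these markers lay above, against 16.8% of all genes tested. One of the 2, the inner root sheath gene Tchh, read 7.9 to 9.2 with Dscr1 and 11.9 to 27.7 without it (0.83 ± 0.28, adjusted p = 0.0596). The other hair follicle markers were too dim to be tested. Sebaceous or meibomian gland markers overlapped, at 23.3 to 57.5 with Dscr1 and 34.0 to 56.4 without it over 6 genes. Sums of 4 skeletal muscle markers were 18.8 to 29.6 with Dscr1 and 22 to 50.8 without it. Photoreceptor sums were 17.2 to 255.4 with Dscr1 and highest on a null array, double KO replicate 1, at 3175.1, where Klk13 read 3021.6 against 3074.6 in replicate 2.

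**Figure D4:**
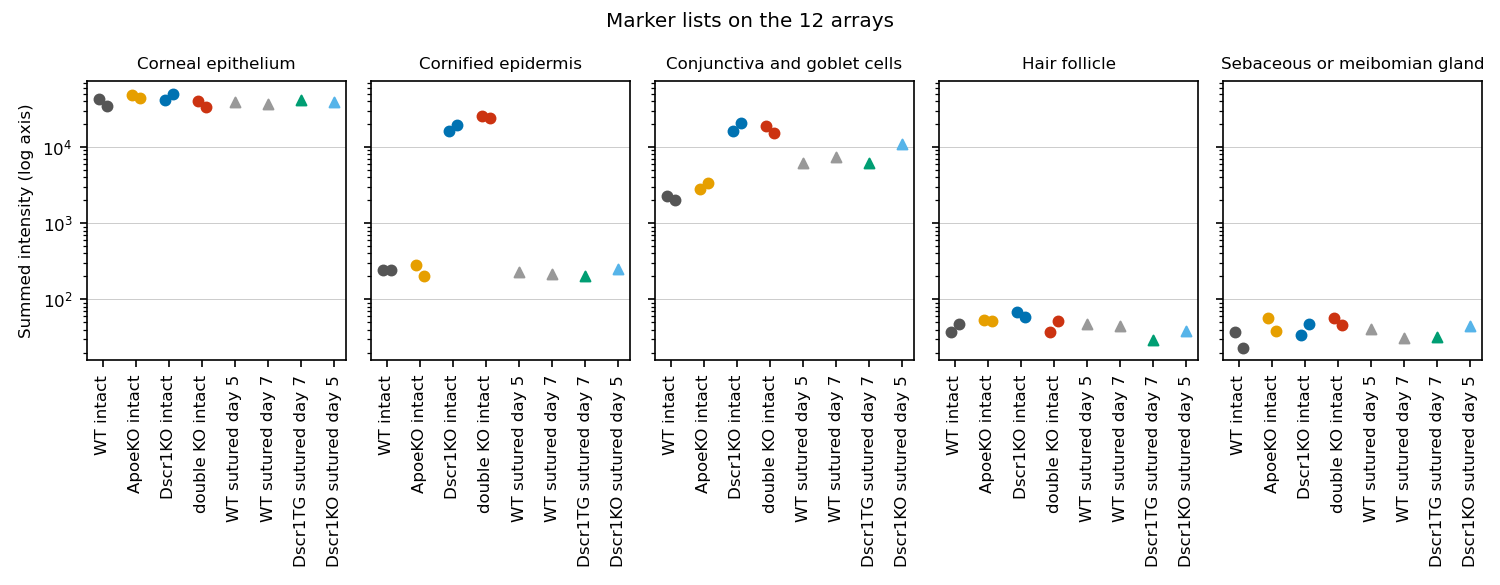
Summed intensity (vertical axis, log scale) of 5 marker lists on the 12 arrays, with intact arrays as circles and sutured arrays as triangles. Cornified epidermis markers are at 16172.2 or more on the 4 Dscr1-null intact arrays and at 278.7 or less elsewhere, corneal epithelium markers stay within 33262.7 to 49237.6, and hair follicle and gland markers stay low.

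Genes with the most similar profiles were sought among the 12699 other genes tested, by the root-mean-square (RMS) difference between log2 profiles over the 12 arrays, each centred on its own mean. Klk8 and Klk10 lay close to each other (RMS 0.44) and shared the nearest gene, Pitx1, a homeobox transcription factor, at 0.37 and 0.43. For scale, the spread of Klk8 about its own mean was 2.23 and that of Klk10 was 2.06. The second nearest were Crabp2, a retinoic acid binding protein, for Klk8 (0.48) and Crct1 for Klk10 (0.43). Klk13, with a spread of 3.58, was nearest to Serpinb3a, a serine protease inhibitor family member, and Dmkn, dermokine, both at 0.89. Klk7 was nearest to the short-chain dehydrogenase genes Sdr16c6 (0.43) and Sdr16c5 (0.52).

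Spink5 lay nearest to Pigz (0.41) and the carbonic anhydrase gene Car13 (0.42), and nearer to Klk11 (0.71) than to any other gene of the list. Klk11 was nearest to Bdh1 (0.23) and Slco2a1 (0.24), a prostaglandin transporter. Klk6 lay nearest to Rps6ka6 (0.52) and the epidermal lipoxygenase gene Aloxe3 (0.57), and Klk5 to Enox1 (0.31) and Cpt1c (0.32), against a spread of only 0.60 for Klk5. These distances describe 12 arrays that share samples and scaling.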

How the data were processed

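RNA from whole corneas was measured on 12 Affymetrix arrays, from 100 ng of total RNA per the labels' protocols. The deposited values are linear probe-set intensity values, which the authors scaled to a mean of 100 on each array after trimming 2% at each end, as tested on the values. The sources used here do not name the software. Of 45101 probe sets, 34958 carry 1 symbol in the platform table, 932 several and 9211 none, and the brightest of those with 1 symbol stood for each gene.

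Values were transformed as log2(intensity + 3.6), the 20th percentile of all values. Genes at or above the 40th percentile of mean log2 value entered a limma model (version 3.58.1, R 4.3.3) of the 4 intact groups. Moderation followed the intensity trend, and p-values were adjusted by Benjamini-Hochberg over 12706 genes with a threshold of 0.05. Suturing was fitted on 7 arrays with Dscr1 genotype as a term, with and without their product. Single sutured arrays were compared without a test, at 2-fold. Scripts were tested on simulated data. Alternatives were filters at the 60th percentile and none, pseudocounts of 1.2 and 6.4, quantile normalization, no intensity trend, every probe set by itself, a replicate block, only the groups compared, each array left out, the 5 arrays with Xist, and fits without the libraries of doubtful Apoe level.

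The genes of the list are named throughout. Each comparison list names up to 4 genes with the largest change past the threshold in the Dscr1 average, or up to 2 with the lowest p, and each gene of the list names the 2 nearest profiles. Marker lists are given as sums. Genes, lists and rules were chosen with earlier results of these data known. The number of arrays limits the precision. Replicate numbers did not pair samples, since correlations of deviations lay between -0.046 and 0.074.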

Additional observations from a re-analysis of the deposited data

How the results depend on the processing

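In the Dscr1 average, 6 genes passed under every alternative run but 4. These were the fits without either Dscr1KO array (7 passed), the 5 arrays with Xist (4 passed) and the stricter filter, which left 5 genes tested, all of which passed. Counts ranged, with each array left out in turn, from 3 to 7 for Dscr1KO minus WT, 3 to 4 for double KO minus ApoeKO, 0 to 1 for double KO minus Dscr1KO, and 0 to 7 for the product of suturing and genotype. With only the groups compared, 1 gene, Spink5 (adjusted p = 0.00159), passed in ApoeKO minus WT, and 1, Spink5, passed for suturing in the WT arrays alone. The causes were not tested. Spink5 in double KO minus ApoeKO passed in 7 of 14 alternatives (adjusted p 0.0227 to 0.228). The replicate block left 6 genes called in the Dscr1 average, among 3682 genes against 4023, and changed no count of the list. No gene called in the Dscr1 average changed sign.

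Counts over all genes moved more. In the Dscr1 average they were 4023, and 2168 to 5683 with an array left out or 683 to 6773 otherwise. In Dscr1KO minus WT they were 1495, and 265 to 3863 or 703 to 2312. In double KO minus WT they were 2555, and 700 to 2186 or 2020 to 4160, and in double KO minus ApoeKO 2493, and 520 to 2099 or 1947 to 3889. For the product they were 77, and 7 to 2169 or 51 to 78. For ApoeKO minus WT they were 3, and 0 to 6 or 0 to 203, for double KO minus Dscr1KO 3, and 4 to 104 or 0 to 18, for the interaction 1, and 0 to 36 or 0 to 3, and for suturing 0, and 0 to 136 or 0 to 595. Signals near background limit Klk5 in all groups, Klk13 in intact corneas with Dscr1, and Klk10 in intact WT and sutured Dscr1KO corneas. They also limit Klk6 and Klk7 in intact corneas with Dscr1 and on all sutured arrays, and Klk6 in intact Dscr1KO replicate 1.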
